A study of Mus musculus with 12 samples.

Results

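The inner root sheath keratins and Gata3 were followed in the skin of C3H/HeJ mice that carried grafts of alopecic skin, a model of alopecia areata in which the recipients lose their hair. The 9 genes were Krt25, Krt26, Krt27, Krt28, Krt71, Krt72, Krt73, Krt74 and Gata3, and every probe set annotated to such a symbol alone was taken. These were 8 probe sets for 8 genes, among 45037 probe sets and 18193 named genes on the array. Krt74, a transcribed pseudogene in the mouse annotation, was matched by no probe set and was not analysed here.

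The series held 12 arrays in 4 groups of 3: baricitinib week 12, baricitinib week 0, vehicle week 12 and vehicle week 0. Baricitinib, an inhibitor of the Janus kinases JAK1 and JAK2, or vehicle was put on the skin daily once the alopecia was established, and biopsies came from the same 3 mice a treatment at the start and after 12 weeks. All 4 groups were grafted C3H/HeJ recipients, so no skin free of the disease was compared, and neither the age nor the sex of these mice was given in the labels. Values were RMA values (background-corrected, quantile-normalised and summarised probe intensities) on the log2 scale, so a difference of 1 is a doubling. The median probe set lay between 5.16 and 5.35 on the 12 arrays. As a guide to background, the 95th percentile of 80 olfactory and vomeronasal receptor probe sets lay between 3.80 and 5.15.

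The inner root sheath is the epithelial tube that surrounds and moulds the growing hair shaft, and it is made anew in each anagen and lost as the follicle regresses. Its keratins form heterodimers of a type I chain (Krt25 to Krt28) with a type II chain (Krt71 to Krt74), and the cells then harden through trichohyalin, peptidylarginine deiminases and transglutaminases. In human follicles the chains of Krt25, Krt27, Krt28 and Krt71 are found through all layers of the sheath, and those of Krt26, Krt72 and Krt73 in its cuticle. Mouse mutations in Krt25 or Krt71 give wavy coats. Gata3 is a zinc finger transcription factor needed for the inner root sheath lineage in mouse skin, and it is also expressed in the epidermis, in Th2 cells and in group 2 innate lymphoid cells.

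On GRCm38.p6 the type I genes lay next to each other on chromosome 11, with Krt25 at chr11:99315516-99322951, Krt26 at chr11:99328484-99337965, Krt27 at chr11:99345565-99351118 and Krt28 at chr11:99365007-99374903. The type II genes lay on chromosome 15, with Krt71 at chr15:101733949-101743097, Krt72 at chr15:101776172-101786520 and Krt73 at chr15:101793304-101802360. Gata3 lay at chr2:9857078-9887953. All 7 keratin genes ran on the minus strand.

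Since the keratins moved together and Gata3 binds GATA words, the 250 bases before each RefSeq start were searched on both strands. The words were AGATAA or its variant AGATAG, and TGATAA or its variant TGATAG. The last 50 bases were searched for TATAAA on the gene's strand. A GATA word was found for Krt25, Krt27, Krt71 and Krt73 and in none of the windows of Krt26, Krt28, Krt72 and Gata3. That was 4 of 7 keratins (57.1%), against 26.5% of 32851 RefSeq windows of this length. Krt27 held 2 words, and 2 or more were found in 6.40% of all windows. TATAAA was found in 6 of the 7 keratin windows, all but Krt72, against 2.63% of all windows, and Gata3 had none. The 4 windows with a GATA word are printed 5′ to 3′ on the minus strand, from RefSeq on GRCm38.p6, with the GATA words and TATAAA in capitals. They are chr11:99322952-99323201 for Krt25, chr11:99351119-99351368 for Krt27, chr15:101743098-101743347 for Krt71 and chr15:101802361-101802610 for Krt73.
Krt25: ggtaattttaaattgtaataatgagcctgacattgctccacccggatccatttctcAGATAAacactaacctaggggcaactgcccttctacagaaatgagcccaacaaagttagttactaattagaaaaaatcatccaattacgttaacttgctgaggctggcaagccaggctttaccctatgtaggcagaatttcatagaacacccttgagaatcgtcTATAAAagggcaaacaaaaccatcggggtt
Krt27: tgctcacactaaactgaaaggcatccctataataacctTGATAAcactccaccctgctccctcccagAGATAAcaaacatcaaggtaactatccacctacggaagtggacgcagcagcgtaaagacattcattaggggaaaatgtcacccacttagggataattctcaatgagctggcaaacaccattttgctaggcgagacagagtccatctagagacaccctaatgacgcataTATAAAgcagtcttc
Krt71: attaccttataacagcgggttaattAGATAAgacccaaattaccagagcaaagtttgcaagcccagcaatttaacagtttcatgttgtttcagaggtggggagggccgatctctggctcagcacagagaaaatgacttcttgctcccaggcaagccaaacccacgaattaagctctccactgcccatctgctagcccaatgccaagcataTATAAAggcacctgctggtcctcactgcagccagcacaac
Krt73: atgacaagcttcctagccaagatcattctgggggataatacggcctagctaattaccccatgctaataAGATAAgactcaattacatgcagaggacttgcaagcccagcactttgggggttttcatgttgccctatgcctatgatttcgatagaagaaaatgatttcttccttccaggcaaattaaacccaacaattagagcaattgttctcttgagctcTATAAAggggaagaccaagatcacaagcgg
The word began 194 bases before the start in Krt25, 212 and 183 bases before it in Krt27, 225 in Krt71 and 182 in Krt73. No match overlapped another. Krt71 and Krt73, both in the type II cluster but with Krt72 between them, shared the run ttgcaagcccagca of 14 bases. Krt27 and Krt71, of different types and chromosomes, shared the 12 bases gcatatataaag around TATAAA. These are matches of letters only, and binding was not measured.

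After 12 weeks of baricitinib all 7 keratins had a lower mean than at week 0, with differences of -5.73 to -4.17 on the log2 scale, and 5 of them (Krt25, Krt27, Krt28, Krt71 and Krt73) fell at an adjusted p under 0.05 in limma. Of all 45037 probe sets 0.875% were called lower in this comparison and 0.362% higher. The median difference of the 7 keratins was -4.97, against 0.0 over all probe sets. Gata3 had the other sign, with a difference of 0.92 that was not called.

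Among the type I keratins, Krt25 measured 10.38, 8.75 and 6.92 in baricitinib week 12 skin, against 13.24, 13.20 and 13.60 in baricitinib week 0 skin. Vehicle skin had 12.70, 12.62 and 12.82 at week 12 and 13.57, 13.17 and 10.60 at week 0. The 3 treated week 12 arrays were thus spread over more than 3 log2 units and still lay below all 9 others. The fall was 4.66 ± 0.82 (SE, 95% interval -6.47 to -2.86, adjusted p = 0.0228), or 25.4-fold.

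Krt27, the neighbour of Krt26 and Krt28, had the same order of the 3 treated week 12 arrays. It measured 9.58, 7.88 and 6.35 in baricitinib week 12 skin, against 12.72, 12.71 and 13.30 in baricitinib week 0 skin. In vehicle skin it was 12.13, 11.85 and 12.09 at week 12 and 13.00, 12.63 and 9.81 at week 0. Its difference between the baricitinib weeks was -4.97 ± 0.84 (SE, adjusted p = 0.0182), and again no treated week 12 array reached any other.

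Krt28 came closest to background. It measured 4.54, 4.80 and 4.44 in baricitinib week 12 skin, against 9.76, 9.39 and 10.46 in baricitinib week 0 skin. On baricitinib week 12 replicate 1 it stood below that array's receptor percentile of 5.15, the only such value of a member, so the fall of 5.28 ± 0.76 (SE, adjusted p = 0.0105) may be understated there. Vehicle skin had 7.59, 7.64 and 8.53 at week 12 and 11.17, 8.82 and 7.12 at week 0, all above the treated week 12 values.

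Krt26, a keratin of the sheath cuticle in human follicles, was not called. It measured 7.20, 6.26 and 4.77 in baricitinib week 12 skin and 10.38, 10.44 and 11.56 in baricitinib week 0 skin, a difference of -4.71 ± 1.12 (SE, interval -7.17 to -2.26, adjusted p = 0.0718). Vehicle skin had 9.22, 8.70 and 8.69 at week 12 and 11.37, 10.54 and 5.92 at week 0. The baricitinib weeks did not overlap, but the last vehicle array, replicate 3 of week 0, fell inside the range of the treated week 12 arrays.

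Of the type II keratins, Krt73 had the largest difference of the 7 and the smallest standard error. It measured 6.09, 6.08 and 4.46 in baricitinib week 12 skin, against 11.60, 10.57 and 11.66 in baricitinib week 0 skin. Vehicle skin had 10.14, 10.26 and 10.44 at week 12 and 11.39, 10.93 and 9.61 at week 0. Here vehicle week 0 replicate 3 stood only a little under the rest, and the treated week 12 arrays were more than 3 log2 units below every other. The fall was 5.73 ± 0.53 (SE, interval -6.88 to -4.58, adjusted p = 0.00128), or 53.0-fold.

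Krt71, the type II chain of all sheath layers in human follicles, measured 6.52, 6.42 and 5.0 in baricitinib week 12 skin, against 11.12, 10.54 and 12.02 in baricitinib week 0 skin. In vehicle skin it was 10.28, 10.11 and 9.79 at week 12 and 12.38, 10.62 and 6.88 at week 0. The treated week 12 arrays were the 3 lowest of 12, but the vehicle array of 6.88 stood close to them. The fall was 5.25 ± 1.05 (SE, adjusted p = 0.0374).

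Krt72 was the least separated of the keratins. It measured 7.34, 6.32 and 5.33 in baricitinib week 12 skin, against 10.07, 10.02 and 11.41 in baricitinib week 0 skin. In vehicle skin it was 9.07, 8.63 and 8.03 at week 12 and 11.20, 9.90 and 4.60 at week 0. Its lowest value of all was therefore in a vehicle mouse before treatment, just above that array's receptor percentile of 4.56, and the difference of -4.17 ± 1.29 (SE, interval -6.99 to -1.35) was not called (adjusted p = 0.167).

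In all 7 keratins the 3 baricitinib week 12 values lay below the 3 of week 0, as they did in 7.91% of all probe sets. In 5 of 7 they also lay below all 9 other arrays (3.07% of all probe sets), the exceptions being Krt26 and Krt72. In bulk skin, fewer cells of a type and less RNA per cell cannot be told apart.

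**Figure D1:**
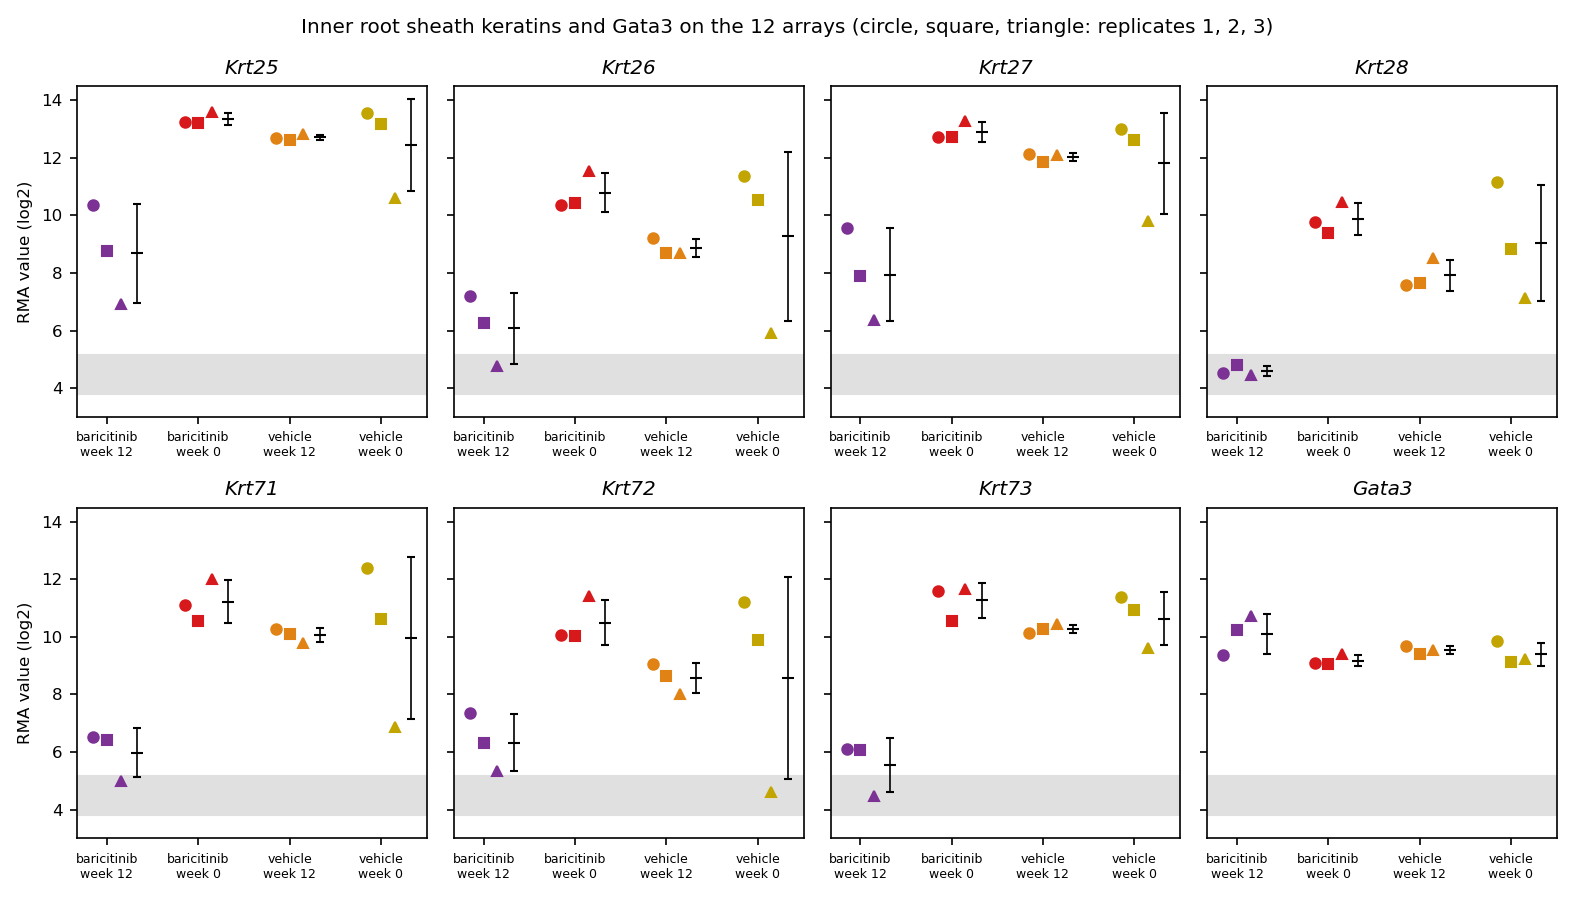
RMA values (log2, vertical axis) of the 7 inner root sheath keratins and Gata3 in each of the 4 groups, with circle, square and triangle for replicates 1, 2 and 3 and the bar for mean ± SD (n = 3). The grey band spans 3.80 to 5.15, the 95th percentile of the receptor probe sets over the 12 arrays. Krt25 stood between 6.92 and 10.38 in baricitinib week 12 skin and between 13.20 and 13.60 in baricitinib week 0 skin, while Gata3 kept between 9.07 and 10.73 throughout.

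The order of the group means was alike across the sheath keratins. Baricitinib week 12 was lowest and baricitinib week 0 highest in all 7. Krt25 averaged 8.68 ± 1.73 in baricitinib week 12 skin, 13.35 ± 0.22 in baricitinib week 0 skin, 12.71 ± 0.10 in vehicle week 12 skin and 12.45 ± 1.61 in vehicle week 0 skin (SD, n = 3 each). Krt73 averaged 5.55 ± 0.94 in baricitinib week 12 skin, 11.27 ± 0.61 in baricitinib week 0 skin, 10.28 ± 0.15 in vehicle week 12 skin and 10.64 ± 0.92 in vehicle week 0 skin. The vehicle week 12 values of each keratin lay within its vehicle week 0 range, so these neighbours in the order did not differ beyond their spread. Each keratin ranged over 6.68 to 7.38 log2 units across the 12 arrays, against a median of 1.43 for all probe sets and 1.66 for Gata3.

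Against vehicle skin of the same week, the 7 keratin means differed by -4.73 to -2.25 in baricitinib week 12 skin, and only Krt73 was called. Its difference was -4.73 ± 0.53 (SE, interval -5.88 to -3.58, adjusted p = 0.00687 in limma), or 26.6-fold lower. Of all probe sets 0.429% were called lower in this comparison and 0.151% higher, and the median keratin difference was -4.03 against 0.01 over all probe sets. This comparison and that with week 0 share the 3 baricitinib week 12 arrays.

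Krt25 and Krt27 had differences of -4.03 and -4.09 at week 12 (adjusted p = 0.0585 each), and Krt28 one of -3.32 (0.0889). Krt71 differed by -4.08 (adjusted p = 0.13) and Krt26 by -2.79 (interval -5.25 to -0.33, adjusted p = 0.377). For Krt72 the difference was -2.25, and its interval of -5.07 to 0.57 held 0 (adjusted p = 0.608). The 3 baricitinib arrays were nevertheless below the 3 vehicle arrays for all 7 keratins, a pattern found in 9.69% of all probe sets.

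**Figure D2:**
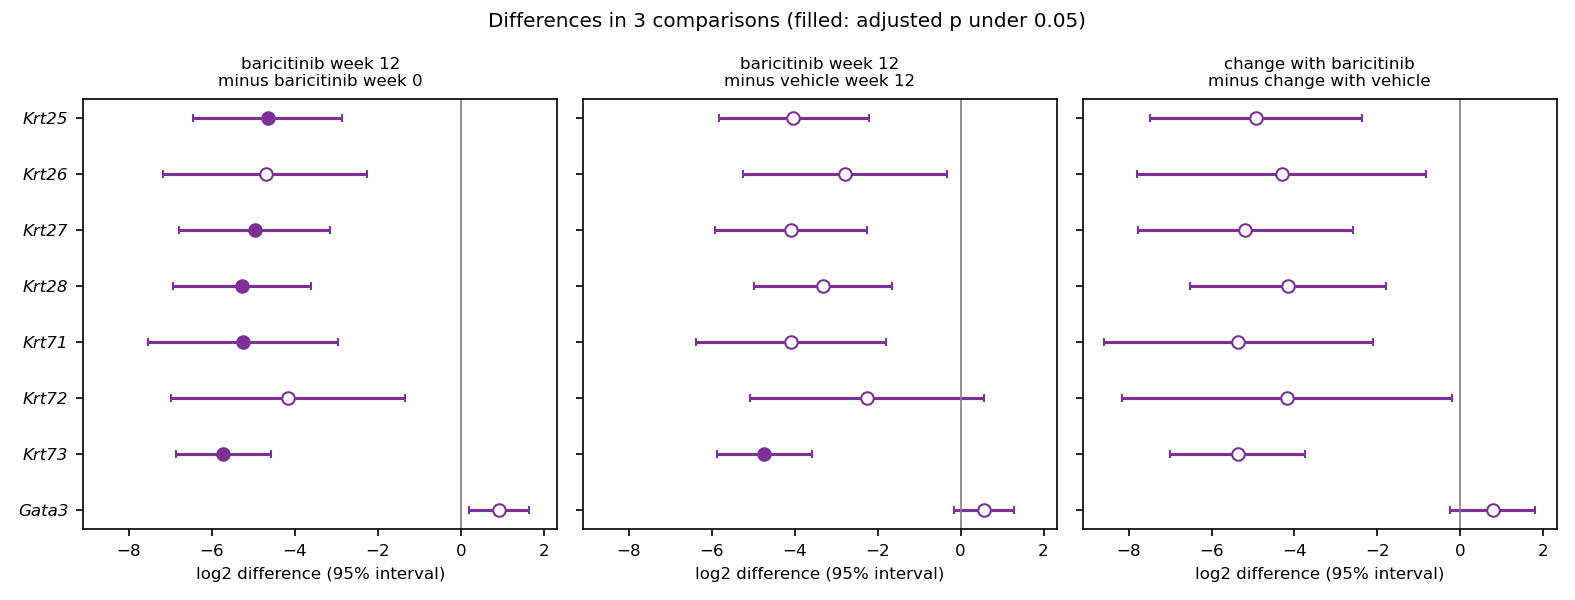
Log2 differences (horizontal axis, point) with 95% intervals (bar) of each sheath keratin and of Gata3 in 3 comparisons, filled where the adjusted p was under 0.05. The 5 filled points of the left panel lie between -5.73 (Krt73) and -4.66 (Krt25), Krt73 alone is filled in the middle panel at -4.73, and none is filled in the panel of the change with baricitinib minus the change with vehicle.

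In single mice, every keratin value was lower at week 12 than at week 0 in all 3 baricitinib mice, a pattern that 12.9% of all probe sets shared. Krt73 changed in value by -5.50, -4.48 and -7.20 in baricitinib mice 1, 2 and 3, against -1.25, -0.67 and 0.83 in vehicle mice 1, 2 and 3. Krt25 changed by -2.87, -4.45 and -6.68 in the baricitinib mice, against -0.87, -0.56 and 2.22 in the vehicle mice. Baricitinib mouse 3 had the most negative value for each of the 7 keratins. In the vehicle mice the signs were split the same way for all 7, negative in mice 1 and 2 and positive in mouse 3. Krt28 had the most negative vehicle value, -3.58 in mouse 1, against -5.22, -4.59 and -6.02 in the baricitinib mice, and the treatments did not overlap for any keratin, as in 6.14% of all probe sets.

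**Figure D3:**
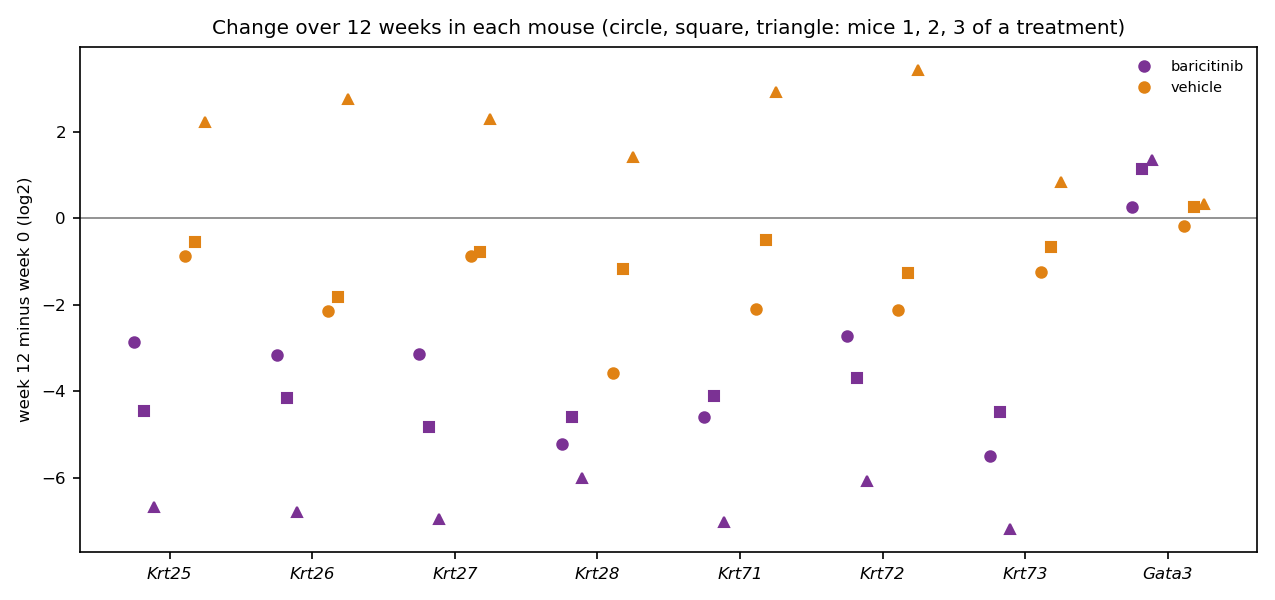
Week 12 minus week 0 (log2, vertical axis) in each baricitinib mouse and each vehicle mouse for the 7 sheath keratins and Gata3, with circle, square and triangle for mice 1, 2 and 3 of a treatment. Keratin values of the baricitinib mice lie between -7.20 (Krt73) and -2.73 (Krt72), while vehicle mouse 3 lies above 0 for all 7 keratins.

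The change with baricitinib minus the change with vehicle was -5.36 ± 0.74 (SE, interval -6.99 to -3.74) for Krt73, with an adjusted p of 0.0758 in limma. The other 6 keratins ranged between -5.35 (Krt71, adjusted p = 0.404) and -4.16 (Krt28, adjusted p = 0.35). No probe set of the array was called for this difference in limma (0.0% of 45037), although 6.27% had an unadjusted p under 0.05, among them all 7 keratins.

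Vehicle alone gave keratin differences between -1.12 (Krt28) and 0.27 (Krt25) over the 12 weeks, with a median of 0.01, and none of them or of the whole array (0.0%) was called in limma. At an unadjusted p under 0.05 there were 0 of the 7 keratins and 2.46% of all probe sets. Before treatment, baricitinib week 0 skin had higher keratin means than vehicle week 0 skin by 0.63 (Krt73) to 1.93 (Krt72). These were not called either (0.0% of all probe sets), and at an unadjusted p under 0.05 there were 0 of 7 keratins against 1.13% of the array. Intervals were wide, -1.54 to 2.07 for Krt25 over the vehicle weeks and -0.89 to 4.75 for Krt72 at the start, and differences within them were not detectable with 3 arrays a group.

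Vehicle week 0 replicate 3 had a mean over the 7 keratins of 7.79, under the other 2 arrays of its group (up to 12.01) and above the highest baricitinib week 12 array (7.38). As the fit used the spread of all 4 groups, this array bore on every keratin test. Without it all 7 keratins were called lower at baricitinib week 12 against week 0, with adjusted p of 0.00446 for Krt26 and 0.00914 for Krt72, and 5 of 7 (Krt25, Krt27, Krt28, Krt71 and Krt73) against vehicle week 12. The shares of all probe sets called lower were then 0.977% and 0.415%, close to those with all arrays. In the same fit all 7 keratins were lower at vehicle week 12 than at vehicle week 0. These differences were -2.08 (Krt26 and Krt28) to -0.66 (Krt25), and none was called. The change with baricitinib minus the change with vehicle was then -4.85 (Krt73) to -2.19 (Krt72), also without a call. Baricitinib week 0 differed from vehicle week 0 by -0.27 (Krt71) to 0.11 (Krt73). Without baricitinib week 0 replicate 3 only Krt73 was called against week 0, and Krt28 and Krt73 without baricitinib week 0 replicate 1 or 2 or baricitinib week 12 replicate 2 or 3. Calls fell across the whole array as well, to 0.133% called lower without baricitinib week 0 replicate 3 and 0.235% to 0.548% without the other 4 arrays. Krt71, the nearest to the threshold, kept its call without 3 of the 12 arrays in turn. Against vehicle week 12, 3 keratins were called without baricitinib week 12 replicate 1 or without vehicle week 0 replicate 1 (0.815% and 0.548% of all probe sets lower). Krt73 was called in both comparisons under every alternative run, with adjusted p of 0.00051 to 0.0261 against week 0 and 0.0033 to 0.0427 against vehicle.

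With the mouse as a fixed block the adjusted p against week 0 was 0.048 for Krt28 and 0.013 for Krt73, and Krt25 (0.0628), Krt27 (0.056) and Krt71 (0.0666) were no longer called. Of all probe sets 0.289% were called lower in that fit. The study's methods state that a baricitinib array of each week of this experiment and a control array at baseline failed quality control. They name none of them and leave unclear to which experiment the control belonged, and all 12 arrays were used here. The lowest mean correlation with their own group, 0.936 and 0.948, belonged to baricitinib week 12 replicate 1 and baricitinib week 0 replicate 2. Leaving out both, Krt25, Krt27, Krt28 and Krt73 were called against week 0 (1.14% of all probe sets lower), and Krt25, Krt27 and Krt73 against vehicle (1.25%).

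The 3′ to 5′ index of the actin and Gapdh control probe sets, a measure of RNA integrity and labelling in which a lower value means more even coverage, also split the arrays. It was 3.45, 1.27 and 1.31 in baricitinib week 12 skin and 3.19, 4.10 and 2.55 in baricitinib week 0 skin. In vehicle skin it was 2.97, 3.10 and 3.58 at week 12 and 1.23, 3.67 and 4.08 at week 0. Baricitinib week 12 replicate 1 thus had the highest index of its group, and in all keratins but Krt28 the highest value as well. Vehicle week 0 replicate 1, with the lowest index of the 12, had high keratin values, 12.38 for Krt71 and 11.17 for Krt28. With the index as a covariate Krt25, Krt26, Krt27, Krt28, Krt71 and Krt73 were called lower against week 0, and Krt28, Krt71 and Krt73 against vehicle. Calls rose across the whole array in this fit, to 2.19% lower and 1.73% higher against week 0 and 1.08% lower against vehicle.

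Gata3 measured 9.36, 10.23 and 10.73 in baricitinib week 12 skin, against 9.09, 9.07 and 9.39 in baricitinib week 0 skin. Vehicle skin had 9.67, 9.40 and 9.56 at week 12 and 9.86, 9.13 and 9.22 at week 0. Replicates 2 and 3 of the treated week 12 group were the highest of the 12 arrays, but replicate 1 stood within the ranges of both week 0 groups, so the groups overlapped. The difference against week 0 was 0.92 ± 0.33 (SE, interval 0.20 to 1.65), with an adjusted p of 0.247 in limma. Within mice Gata3 differed between the weeks by 0.27, 1.15 and 1.35 with baricitinib and by -0.19, 0.27 and 0.34 with vehicle.

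In order of its group means Gata3 stood at 10.11 ± 0.70 in baricitinib week 12 skin, 9.54 ± 0.13 in vehicle week 12 skin, 9.40 ± 0.40 in vehicle week 0 skin and 9.18 ± 0.18 in baricitinib week 0 skin (SD, n = 3 each), and each group overlapped its neighbours in this order. Against vehicle week 12 the Gata3 difference was 0.56 (interval -0.16 to 1.29, adjusted p = 0.62), and the difference between the changes was 0.78 (interval -0.24 to 1.81, adjusted p = 0.885). Vehicle week 12 differed from vehicle week 0 by 0.14 and baricitinib week 0 from vehicle week 0 by -0.22. No change of Gata3 passed the test, and the lower ends of its 3 intervals for baricitinib week 12 stood near 0, far from the keratin differences.

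The 3 highest Gata3 values, 10.73, 10.23 and 9.86, were on the 3 arrays with an index of 1.31, 1.27 and 1.23. With the index as a covariate the Gata3 difference was 0.51 against baricitinib week 0 (adjusted p = 0.283) and 0.17 against vehicle week 12 (adjusted p = 0.716). Without baricitinib week 12 replicate 1, Gata3 was called higher against week 0 (1.30, adjusted p = 0.0354), in a fit that called 1.37% of all probe sets higher.

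Gata3 is also a gene of T helper 2 cells and group 2 innate lymphoid cells, and their markers were measured beside it. Of 10 T cell markers measured, only Cd8a was called in baricitinib week 12 skin against week 0 (-4.29, adjusted p = 0.00912 in limma). It was at or below the receptor percentile on 1 baricitinib week 12 array. A dimmer Cd8a probe set was also called (-4.19, adjusted p = 0.00777), and its other probe sets (-1.34, -0.59 and -0.15) were not. The 10 markers had a median difference of -0.52, with 7 below 0 and 3 above. Their mean per array was 6.01 to 6.51 in baricitinib week 12 skin and 6.45 to 7.38 in baricitinib week 0 skin. In vehicle skin it was 6.64 to 7.27 at week 12 and 7.14 to 7.37 at week 0. None of 5 markers of group 2 innate lymphoid and Th2 cells was called, with a median of -0.21. On all arrays of baricitinib week 12, 3 of the 5 stood at or below the receptor percentile. The count was also 3 in baricitinib week 0 and in vehicle week 0 skin, and 2 in vehicle week 12 skin. None of 5 other GATA factors was called. Gata2, a factor of blood and endothelial cells, differed by 0.53 (adjusted p = 0.662), and Gata6 by 0.71 (adjusted p = 0.613).

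The proteins that harden the sheath beside the keratins were lower in part. Of 9 measured genes, Tchh and Casp14 were called lower in baricitinib week 12 skin against week 0, and none was called higher. The list's median was -1.72, with 7 differences below 0 and 2 above. Those above were the transglutaminases Tgm1 (0.88) and Tgm5 (0.58). Tchh, which encodes trichohyalin, averaged 9.90 ± 0.94 in baricitinib week 12 skin and 12.66 ± 0.29 in baricitinib week 0 skin (SD, n = 3 each, difference -2.76 ± 0.48 SE, adjusted p = 0.0216). Casp14, a caspase of cornifying keratinocytes, differed by -1.28 (adjusted p = 0.0498). Tchhl1, a trichohyalin-like gene, differed by -5.19 (adjusted p = 0.0787), and the transglutaminase Tgm3 by -1.72 (0.161). Tchhl1 was at or below the receptor percentile on 1 of the 3 baricitinib week 12 arrays, and the deiminases Padi1 and Padi3 on all 3, so that the size of their differences is only bounded from below. Padi1 averaged 3.97 in baricitinib week 12 skin and 7.77 in baricitinib week 0 skin (adjusted p = 0.144), and Padi3 3.66 in baricitinib week 12 skin and 7.48 in baricitinib week 0 skin (adjusted p = 0.155). Against vehicle week 12 none of the 9 was called, with a median of -2.15, and Tgm1 (0.47) and Tgm5 (0.56) were again above 0.

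Among 14 regulators of the sheath and the matrix below it, Shh and Msx2 were called lower against baricitinib week 0 and none higher. Their median difference was -0.91, with 11 below 0 and 3 above. Shh, the hedgehog ligand of the hair matrix, averaged 2.87 ± 1.33 in baricitinib week 12 skin and 8.68 ± 0.96 in baricitinib week 0 skin (SD, n = 3 each, adjusted p = 0.0102). It was at or below the receptor percentile on 2 of the 3 baricitinib week 12 arrays, so its fall may be understated, and it was the 1 regulator called lower against vehicle week 12. Msx2, a homeobox factor of the matrix, averaged 5.50 ± 0.16 in baricitinib week 12 skin and 8.29 ± 0.83 in baricitinib week 0 skin (adjusted p = 0.0248). Cux1, a homeodomain factor expressed in the sheath, differed by -0.94 (adjusted p = 0.116) and Dlx3 by -0.87 (0.325).

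Layers on either side of the sheath varied. Of 12 hair shaft keratins 3 were called lower against week 0, none higher, and the median was -4.34. Krt35 of the shaft fell by 6.51 (adjusted p = 0.0022), with 2 of its 3 baricitinib week 12 values at or below the receptor percentile. Krt82 (-5.11, adjusted p = 0.0203 in limma), also with 2 such values, and Krt31 (-5.16, adjusted p = 0.0372) were the others called. Outside the baricitinib week 12 group the lowest array mean of the shaft list, 6.23, was on vehicle week 0 replicate 3. None of 5 companion layer and stress keratins was called, Krt75, the companion layer keratin, differed by -0.66 (adjusted p = 0.753) and Krt6b by -3.60 (0.0964). Of 5 outer root sheath and bulge genes 1 was called, with a median of 0.09. It was Krt15, a keratin of basal and bulge cells, which rose by 2.36 (adjusted p = 0.0227). Sox9 and Lhx2, factors of the same cells, differed by -0.08 and -0.12, Cd34 by 0.98 and Lgr5 by 0.09. Against vehicle week 12 all 5 differences were above 0, and again only Krt15 was called. None of 7 interfollicular epidermis genes was called, and their array means were 12.23 to 12.48 in baricitinib week 12 skin, 12.35 to 12.44 in baricitinib week 0 skin, 12.56 to 12.78 in vehicle week 12 skin and 12.05 to 12.54 in vehicle week 0 skin.

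Of the remaining cell type lists, those of adipocytes and cycling cells had 1 called gene each against week 0. Of 3 adipocyte genes measured Cidec rose against week 0 (2.76, adjusted p = 0.0176), and the array means of the 3 were 9.35 to 9.81 in baricitinib week 12 skin, 5.98 to 7.97 in baricitinib week 0 skin, 6.63 to 8.18 in vehicle week 12 skin and 6.37 to 6.96 in vehicle week 0 skin. Of 4 cycling cell genes Cdk1 fell (-1.23, adjusted p = 0.0387), while none of 5 melanocyte, 4 skeletal muscle or 2 sebaceous gland genes was called by its brightest probe set. A dimmer probe set of Scd3, a sebaceous gland desaturase, was called higher (2.75, adjusted p = 0.0367), and its brightest was not (2.80, adjusted p = 0.0625). The melanocyte array means were 5.50 to 6.94 in baricitinib week 12 skin and 6.97 to 8.99 in baricitinib week 0 skin. Both vehicle groups overlapped baricitinib week 12, with 6.33 to 8.12 at week 12 and 5.94 to 8.02 at week 0. The part of these levels in the keratin values was not tested.

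**Figure D4:**
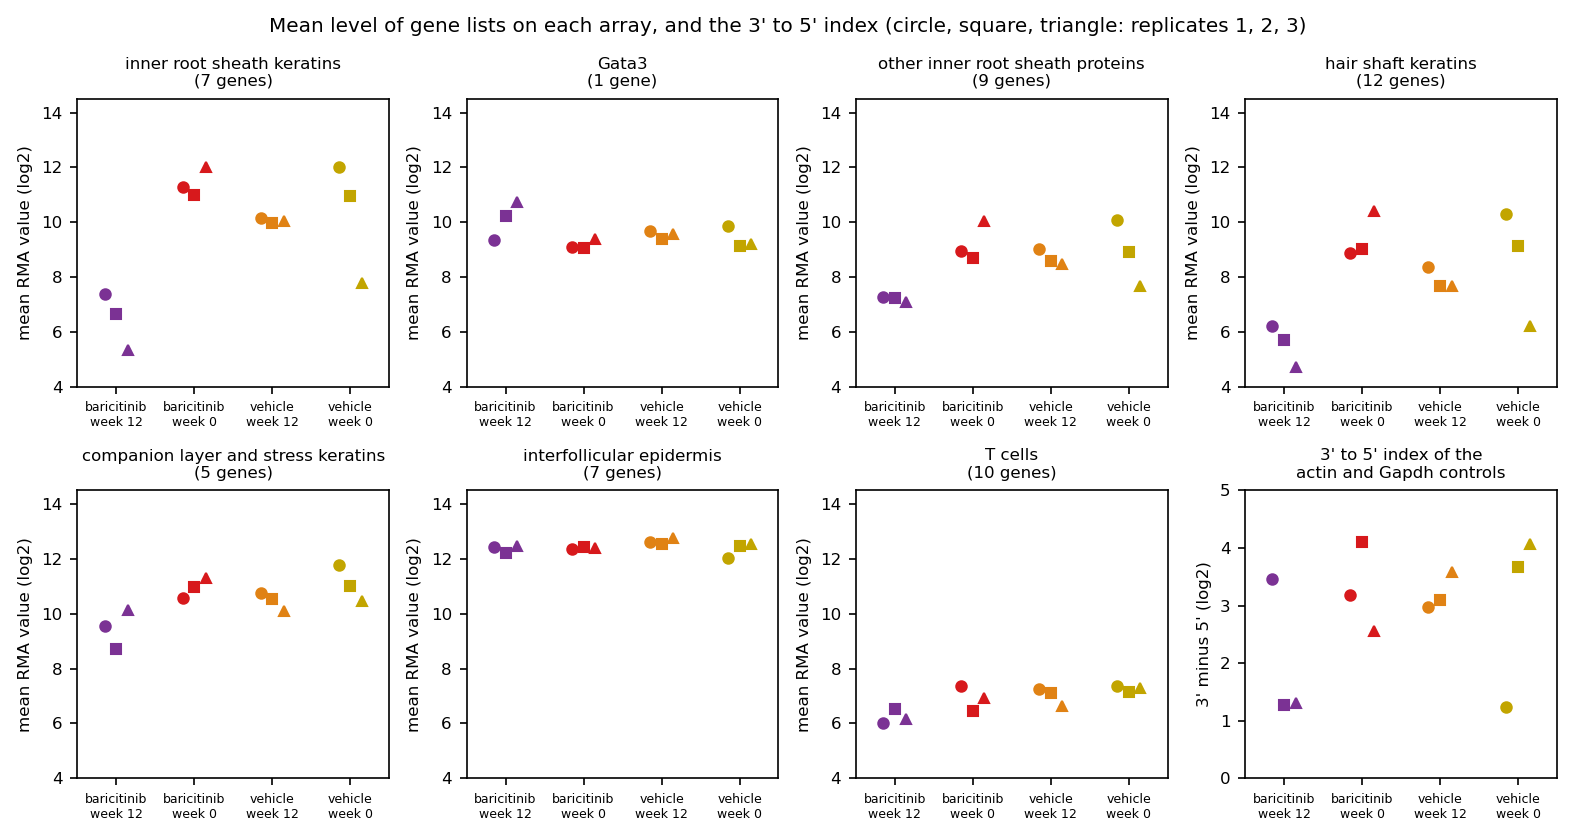
Mean RMA value (log2, vertical axis) of 7 gene lists on each of the 12 arrays, and in the last panel the 3′ minus 5′ index (log2) of the control probe sets, with circle, square and triangle for replicates 1, 2 and 3. The inner root sheath keratins lie at 5.33 to 7.38 in baricitinib week 12 skin and at 10.98 to 12.00 in baricitinib week 0 skin, the interfollicular epidermis lies at 12.05 to 12.78 throughout, and vehicle week 0 replicate 3 is low in both sheath and shaft lists.

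Over the 12 arrays the named genes whose centred profile was most like the mean of the 7 sheath keratins were Krt82 (root mean square difference 0.350 log2 units), Prr9 (0.352), Fbp1 (0.402), Krt33a (0.412), Krt31 (0.432) and Krtap13-1 (0.477). Krt31, Krt33a and Krt82 are hair shaft keratins, Krtap13-1 encodes a keratin-associated protein of the shaft, and Fbp1 encodes an enzyme of gluconeogenesis. The sheath keratins themselves, which make up that mean, were at 0.365 (Krt71) to 0.846 (Krt72). Gata3 was most like Slc31a2 (0.149), Septin8 (0.155), Ift20 (0.165), Rcan1 (0.166) and Dlg3 (0.167), none of which was called against week 0. The 12 arrays share the index and the groups given above, so this likeness is a description only.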

How the data were processed

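Skin RNA of 6 mice was amplified with NuGEN kits and hybridised to 12 Affymetrix mouse genome arrays. The deposited values are log2 RMA values that the authors made from this experiment alone. RMA equalises the distributions of the arrays, and the number of arrays limits the precision. After 64 control probe sets were left out, limma 3.58.1 (R 4.3.3) was fitted with a mean for each of the 4 groups, and p-values were adjusted by Benjamini-Hochberg over 45037 probe sets (8 residual and 3.54 prior degrees of freedom). Of these, 34945 had 1 annotated symbol, 932 several and 9160 none. The members and lists were chosen with earlier results of these data known. Every probe set of a member was named. A list gene was represented by its brightest probe set, and named where called or for its role. In simulated data the fit recovered 49 of 50 falls of 4, 31 of 50 falls of 2 and 4 of 50 falls of 1 (log2). The changed probe sets were drawn at random from the array, each with its own spread. Recovery at the spread of the keratins (SE 0.53 for Krt73 to 1.29 for Krt72 against week 0) was therefore not measured. The label descriptions give each array an animal number, the same at both weeks. Deviations of the 2 arrays of a mouse correlated by -0.362, -0.508 and 0.467 (baricitinib) and 0.439, -0.134 and 0.491 (vehicle). Each fit was repeated without dim probe sets, with a variance trend, with each mouse as a block (fixed or random), on 2 groups alone, after cyclic loess or centring on the median, with 1 probe set a gene, and without each array. A covariate for the 3′ to 5′ index was added after seeing the data.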

Additional observations from a re-analysis of the deposited data

How the results depend on the processing

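Of the 7 keratins, 5 were called lower at baricitinib week 12 against week 0. With a fixed replicate block for each mouse 2 were called (Krt28 and Krt73), with only the 2 groups 3, and with an array left out 1 to 7. Shares of all probe sets called lower moved too, from 0.875% to 0.289% with the block and 0.195% with only the 2 groups. With an array left out they were 0.133% to 1.66%. Against vehicle week 12 Krt73 was called. With the filter on dim probe sets, only the 2 groups, 1 probe set a gene, the 2 arrays of lowest correlation left out, or a covariate for the 3′ to 5′ index, 3 were called each, and with an array left out 1 to 5. The share of all probe sets called lower, 0.429% at first, was 0.0955% with only the 2 groups. It was 1.25% without the 2 arrays, 1.08% with the index and 0.0466% to 0.815% with an array left out. The change with baricitinib minus the change with vehicle had 0 calls, and 1 (Krt73) with 1 probe set a gene, without the 2 arrays of lowest correlation, with the index, and at most without an array (0 to 1). The block changed no other call, and a fixed block could not be fitted between treatments at week 12. The cause was not tested, beyond fewer arrays or probe sets entering some fits.

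No keratin or Gata3 difference of the 3 baricitinib week 12 comparisons changed its sign under the alternatives run. Over the vehicle weeks, with no call, signs turned when an array was left out, in the ranges -0.66 to 0.83 for Krt25, -2.08 to 0.64 for Krt26, -0.79 to 0.81 for Krt27, -1.44 to 1.31 for Krt71, -1.97 to 1.33 for Krt72 and -0.88 to 0.01 for Krt73. Cyclic loess gave Krt72 a difference of -0.03. At week 0, baricitinib against vehicle, the ranges were -0.02 to 1.46 for Krt25, -0.16 to 2.56 for Krt26, -0.13 to 1.90 for Krt28, -0.27 to 2.48 for Krt71, -0.05 to 3.25 for Krt72 and -0.36 to 0.01 for Gata3. Signal over background limits Krt28 most, on 1 baricitinib week 12 array. On baricitinib week 12 replicate 3 Krt73 stood about as near that array's receptor percentile as Krt28, 0.55 and 0.53 above it. Krt26 (0.86) and Krt71 (1.08) came next on that array.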
